A study of Mus musculus with 33 samples.

Results

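The 9 genes described here, Pax6, Pax3, Sox1, Nes, Zic1, Neurog2, Neurod1, Tubb3 and Map2, mark the neural lineage from the early neural plate to the neuron, and they were chosen by gene name from the 55487 genes of the deposited tables. RNA-seq libraries were made from mouse embryonic stem cells (ESCs) of the C57BL/6 strain, which is the same in all groups, with 11 groups of 3 libraries each. 7 groups lacked 1, 2 or all 3 genes of the heterochromatin protein 1 (HP1) family, in which Cbx5 encodes HP1α, Cbx1 encodes HP1β and Cbx3 encodes HP1γ: the single mutants Hp1αΔ/Δ, Hp1βΔ/Δ and Hp1γΔ/Δ, the double mutants Hp1α/βΔ/Δ, Hp1α/γΔ/Δ and Hp1β/γΔ/Δ, and the triple mutant Hp1α/β/γΔ/Δ (genotype labels HP1αKO to HP1β/γ/αTKO). A pair of wild-type groups carried the genotype label WT under different titles and are called set A and set B. The remaining groups were Setdb1F/F ESCs, whose Setdb1 gene, for a histone H3 lysine 9 methyltransferase, was floxed on both alleles (label SETDB1FF), and Setdb1Δ/Δ cells after its deletion (label SETDB1KO). By the study's methods, the single and double mutants were constitutive CRISPR/Cas9 knockouts grown from isolated clones. The triple mutant was made by transient Cre transfection of Hp1α/βΔ/Δ;Hp1γF/F cells, so that it shares the loss of Hp1α and Hp1β with Hp1α/βΔ/Δ ESCs. Its RNA was taken a few days after transfection, and the study reports much apoptosis and a cell-cycle arrest in these cells. The time since the last loss thus differs from that of the clonal mutants. Effects of this time, of cell death, of the Cre transfection, of the floxed line and of the number of lost paralogs cannot be told apart. The text of the study names control-vector cells as the counterpart of the triple mutant, whereas the deposited table sets it against wild-type set A, and both set A and Hp1α/βΔ/Δ ESCs are used as its control below. ESCs were kept on feeder layers of mouse embryonic fibroblasts, which were removed by plating on gelatin, so that a library can still hold some feeder RNA.

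Neural fate in the embryo begins with a loss of pluripotency and the rise of transcription factors that define and pattern the neural plate, among them SOX1, PAX6, PAX3 and ZIC1. Neural progenitors carry the intermediate filament protein nestin (Nes), and proneural basic helix-loop-helix (bHLH) factors such as NEUROG2 and NEUROD1 then drive cells out of the cycle and into neuronal differentiation by binding E-boxes. Neurons are recognised by cytoskeletal proteins such as βIII-tubulin (Tubb3) and microtubule-associated protein 2 (Map2). HP1 proteins bind histone H3 methylated at lysine 9, the mark that SETDB1 and related enzymes place at silent chromatin.

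All 9 members are protein-coding genes of GRCm38 (GENCODE annotation). The annotated spans are Pax6 at chr2:105668900-105697364, Neurod1 at chr2:79452521-79456751, Nes at chr3:87971078-87980451, Neurog2 at chr3:127633135-127635631, Map2 at chr1:66175273-66442583 and Pax3 at chr1:78101267-78197134. Those of the others are Sox1 at chr8:12395295-12400126, Tubb3 at chr8:123411424-123422015 and Zic1 at chr9:91358058-91365810. Pax3, Zic1 and Neurod1 lie on the minus strand.

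The promoter sequences of 4 members are shown because these members moved in pairs in the triple mutant: Nes and Zic1, which rose, and Tubb3 and Map2, which fell. Each run lies upstream of the annotated gene start (RefSeq promoter windows, GRCm38.p6), holds no annotated exon of that gene, and reads 5′ to 3′ on the strand of the gene. Exons of other genes were not looked for in these runs. Capitals mark E-boxes (CANNTG, which reads the same on both strands).
Nes, chr3:87970843-87971077, plus strand: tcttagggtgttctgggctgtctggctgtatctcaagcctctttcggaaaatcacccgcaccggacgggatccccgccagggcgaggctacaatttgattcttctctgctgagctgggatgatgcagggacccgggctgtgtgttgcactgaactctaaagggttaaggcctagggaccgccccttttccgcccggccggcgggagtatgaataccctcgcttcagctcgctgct
Zic1, chr9:91365811-91366018, minus strand: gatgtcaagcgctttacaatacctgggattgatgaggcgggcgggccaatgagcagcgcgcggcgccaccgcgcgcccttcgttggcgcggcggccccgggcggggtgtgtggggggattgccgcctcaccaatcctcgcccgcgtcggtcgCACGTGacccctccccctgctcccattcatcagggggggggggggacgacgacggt
Tubb3, chr8:123411303-123411423, plus strand: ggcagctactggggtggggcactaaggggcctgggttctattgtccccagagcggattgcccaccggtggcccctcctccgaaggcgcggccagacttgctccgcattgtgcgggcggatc
Map2, chr1:66175079-66175272, plus strand: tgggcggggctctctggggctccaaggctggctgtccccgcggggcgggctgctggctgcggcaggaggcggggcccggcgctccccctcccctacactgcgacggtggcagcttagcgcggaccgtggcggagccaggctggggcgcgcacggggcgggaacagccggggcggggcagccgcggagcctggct
Windows of 300 bases were matched by symbol for 8 of the 9 members (all but Pax3). An E-box stood in the windows of Zic1, Neurod1 and the downstream start of Pax6, with 1 each, and in 72.3% of the 32851 promoter windows of RefSeq. All windows of the members were rich in the dinucleotide CG, with an observed over expected ratio from 0.57 in Neurog2 to 1.07 in Sox1, against a median of 0.384 over all windows. The full 300-base windows of the 4 genes shown, which run past the printed stretches, all had a ratio above that median (0.702 in Nes, 0.969 in Zic1, 0.765 in Tubb3 and 0.827 in Map2) whether the gene rose or fell.

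Total counts per library lay between 17330992 and 25743193. RNA of the targeted genes was lower in their mutants, but not lost. For example, Cbx1 stood at 44.4 CPM (counts scaled to the size of the library) in the triple mutant against 441 in set A. Cbx5 stood at 271 CPM there against 486 (log2 fold change −0.81, short of the fold threshold). Setdb1 stood at 69.3 CPM in Setdb1Δ/Δ cells against 133 in Setdb1F/F ESCs (−0.93, also short of the threshold). These values are RNA over the whole gene and do not measure protein. By western blot, the study reports that the HP1 proteins and SETDB1 were absent in their mutants. Its Setdb1 deletion takes out only some of the exons. All 18 listed pluripotency genes were at 1 CPM or more in every group, and their summed level ran from 1904 CPM in the triple mutant to 10389 CPM in Setdb1F/F ESCs. Replicate 2 of Hp1α/γΔ/Δ stood apart from the other replicates of its group, with a chi-square per degree of freedom of 122 and 114 against them, where the other pair gave 2.53.

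In the wild-type ESCs of set A the 9 genes covered a wide range of expression per length, here as the mean of the TPM (a length-scaled abundance) that the authors deposited. Tubb3 had the highest TPM at 104, followed by Map2 at 11.8, Neurod1 at 11.5, Nes at 10.7 and Pax6 at 3.76. Sox1 was at 0.223, Pax3 at 0.113, Zic1 at 0.0333 and Neurog2 at 0.03 TPM. In the triple mutant the order was different: Nes led at 37.4 TPM, Tubb3 followed at 31.6, and Pax6 at 8.04 lay above Neurod1 at 4.77 and Map2 at 2.67. All other levels below are CPM, normalised over all 33 libraries, which compare 1 gene between groups and not 1 gene with another. Pax3 and Neurog2 had a group mean below 10 counts in 10 of 11 groups, Zic1 in 9, and Pax6 and Sox1 in 1 each, while Nes, Neurod1, Tubb3 and Map2 were at or above 10 counts in every group.

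**Figure D1:**
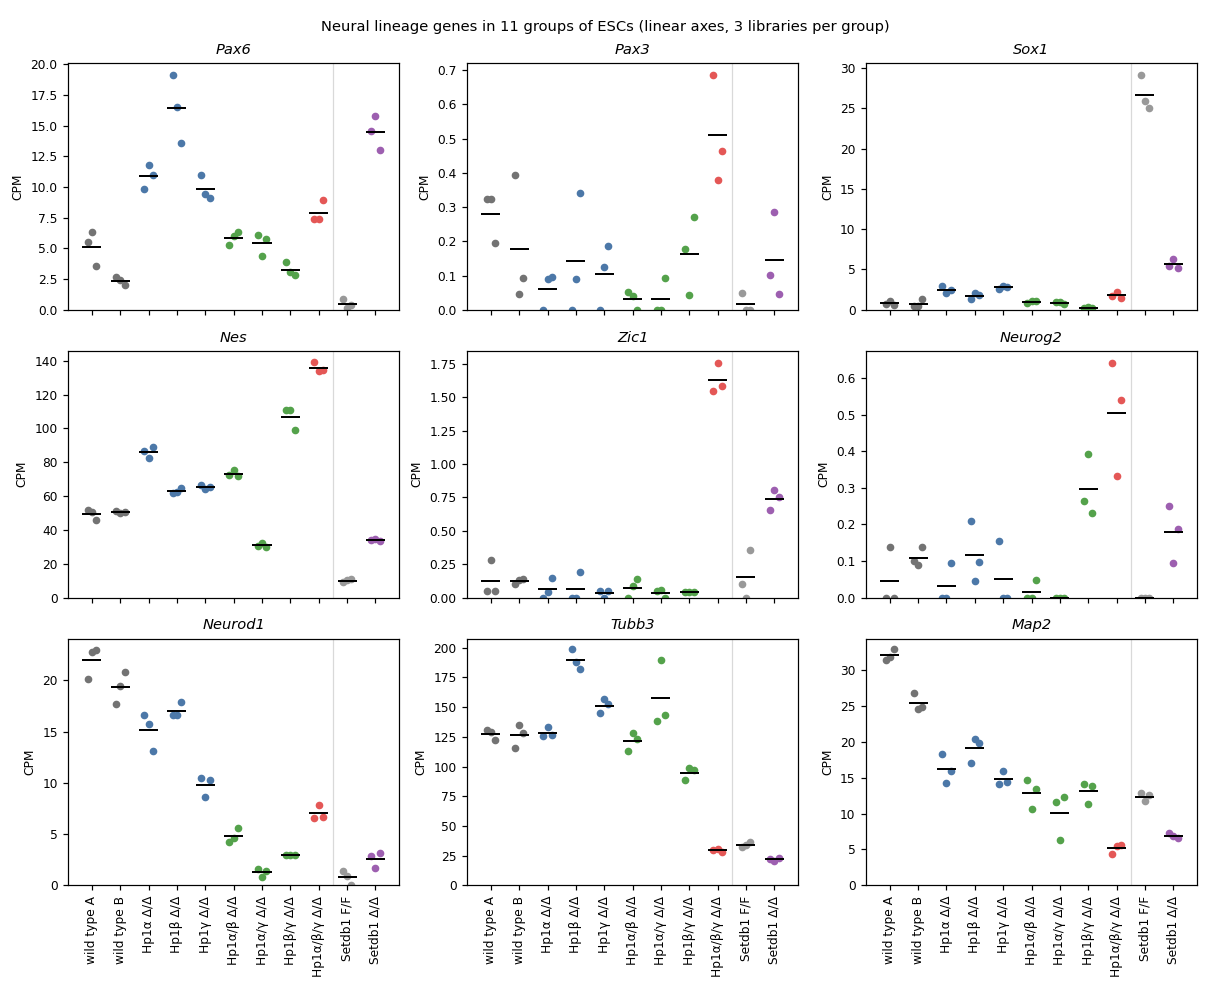
CPM of each of the 9 genes (linear vertical axes from 0) in 11 groups of ESCs, with 1 point per library and a bar at the mean of 3 libraries. Nes and Zic1 were highest and Map2 lowest in the triple mutant Hp1α/β/γΔ/Δ, Neurod1 was highest in the wild-type sets, and Sox1 was far above every other group in Setdb1F/F ESCs, at 25.0 to 29.2 CPM.

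The first question was what the loss of all HP1 paralogs did to the neural genes. Against set A, Hp1α/β/γΔ/Δ cells had more RNA of Sox1, Nes and Zic1 and less of Neurod1, Tubb3 and Map2. Thus 3 of the 7 members tested rose against set A, all of them genes of patterning or of progenitors. The 3 that fell were a proneural factor gene and the neuronal cytoskeleton genes. This split leaves out the proneural factor gene Neurog2, which had more counts in the triple mutant but was not tested. It also depended on the control: against Hp1α/βΔ/Δ ESCs the log2 fold changes were 0.58 for Neurod1, 0.82 for Sox1 and 0.92 for Nes. A call required an adjusted p below 0.05 and a log2 fold change beyond 1 in edgeR's quasi-likelihood test. By this rule 42.3% of all 17504 tested genes were called, 25.1% as higher and 17.1% as lower. With so large a background, 6 of 7 members is a description of these genes and not a mark that sets them apart. Zic1 passed the filter on low counts only through the triple mutant, where it was high, so that it could be called here only as higher. In these bulk libraries, fewer cells with a transcript and less RNA of it per cell cannot be told apart.

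Sox1, which encodes the earliest of these neuroectoderm factors, had 1.43 to 2.19 CPM in the triple mutant (37 to 46 counts) and 0.582 to 1.07 CPM in set A (12 to 23 counts). The groups did not overlap, and the fold change was 2.27 (log2 1.18 ± 0.35 SE, adjusted p = 0.00444). The call fell below the fold threshold without replicate 2 of the triple mutant (log2 0.999) or without replicate 3 of set A (0.98). Sox1 lies on chromosome 8, and the median over the genes of that chromosome was 0.515 higher on the log2 scale than over the rest of the genome in this comparison. Its part in the Sox1 result was not tested. Against Hp1α/βΔ/Δ ESCs the difference of Sox1 was 0.82 (adjusted p = 0.0237) and was not called.

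Single mutants also had more Sox1 than the wild type. Its mean was 2.51 CPM ± 0.40 in Hp1αΔ/Δ, 1.74 ± 0.40 in Hp1βΔ/Δ and 2.79 ± 0.21 in Hp1γΔ/Δ ESCs (SD, n = 3 in each group, as for every SD below). All 3 were called as higher than set A, with log2 fold changes of 1.64 ± 0.32 (adjusted p = 0.000288), 1.10 ± 0.36 (adjusted p = 0.0226) and 1.79 ± 0.30 (adjusted p = 8.17e-05). The Hp1βΔ/Δ call was lost when replicate 2 or 3 of the mutant, or replicate 1 or 3 of set A, was left out, with adjusted p values up to 0.0914. In double mutants Sox1 was no higher than 1.13 CPM in any library: the means were 1.01 in Hp1α/βΔ/Δ, 0.887 in Hp1α/γΔ/Δ and 0.267 in Hp1β/γΔ/Δ ESCs. In Hp1β/γΔ/Δ ESCs it had only 6, 7 and 6 counts, against 9, 10 and 28 in set B, and was below the filter for a test. The ratio of the group totals was 0.364, with a 95% interval of 0.202 to 0.633 that covers counting error only, and without the filter edgeR called it as lower while DESeq2 did not.

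Pax6, a paired-box factor of the forebrain and eye field, was between 7.37 and 8.94 CPM in the triple mutant and between 3.59 and 6.30 in set A. It was higher in every mutant library, but the log2 fold change of 0.65 ± 0.18 (adjusted p = 0.00229) did not reach the threshold of 1. Against Hp1α/βΔ/Δ ESCs, at 5.31 to 6.35 CPM, the difference was 0.45 (adjusted p = 0.00859).
By CPM, all 3 single mutants had higher means than the triple mutant, but by the deposited TPM only Hp1βΔ/Δ did: the mean TPM of Pax6 was 8.04 in the triple mutant, 10.04 in Hp1βΔ/Δ, 7.24 in Hp1γΔ/Δ, 6.96 in Hp1αΔ/Δ and 3.76 in set A. In Hp1βΔ/Δ ESCs the libraries held 19.2, 16.5 and 13.6 CPM, which was 3.13-fold above set A (log2 1.65 ± 0.18, adjusted p = 2.6e-05). In Hp1αΔ/Δ ESCs they held 9.81, 11.8 and 11 CPM, a rise of 1.07 ± 0.16 (adjusted p = 1.46e-05) that dropped to 0.87 without replicate 3 of set A. Hp1γΔ/Δ ESCs lay just under the threshold at 0.92 (adjusted p = 0.000159), and Hp1α/βΔ/Δ ESCs overlapped set A (0.19, adjusted p = 0.43).

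The wild-type sets did not hold the same level of Pax6, which limits how its changes can be read. Set B had 2.06 to 2.66 CPM, below every library of set A, and this was called (log2 −1.11 ± 0.22, adjusted p = 0.00148). It was the only member called among the 6 tested between the sets, where 5.68% of all genes were called and 3.12% as lower, and the call was lost without replicate 2 of set A (−0.94). The choice of set therefore decided Pax6 calls. In Hp1α/γΔ/Δ ESCs, with 6.12, 4.40 and 5.74 CPM, it was called as higher than set B (1.15 ± 0.22, adjusted p = 0.00438) but differed from set A by 0.05. In the triple mutant, the log2 fold change was 1.78 against set B in place of 0.65. In Hp1β/γΔ/Δ ESCs, with 2.82 to 3.88 CPM, the value was 0.45 (adjusted p = 0.0652) against set B and −0.66 against set A.

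Zic1, a zinc finger factor of the dorsal neural tube, was nearly silent outside the triple mutant and Setdb1Δ/Δ cells. It had 36, 37 and 41 counts in the triple mutant (1.54, 1.76 and 1.59 CPM) and 1, 6 and 1 counts in set A. The increase was 12.8-fold (log2 3.68 ± 0.53, adjusted p = 3.36e-06) and reached log2 4.97 without replicate 2 of set A, which held 6 of its 8 counts. Against Hp1α/βΔ/Δ ESCs, with 0, 2 and 3 counts, the log2 fold change was 4.33 ± 0.55 (adjusted p = 2.25e-06), and 4.99 without replicate 3 of the double mutant. The single and double mutants had 2 to 5 counts in all 3 libraries together and were below the filter for a test against either wild-type set, which had 8 counts each. A near neighbour, Zic4, is annotated on the opposite strand and shares 60 exon bases with Zic1.

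Pax3, which acts in the dorsal neural tube and the neural crest, was below the filter in every comparison. The triple mutant held 16, 8 and 12 counts, more than the 7, 7 and 4 of set A in each library, and the ratio of the group totals was 1.82 (95% counting interval 1.01 to 3.4). Hp1α/βΔ/Δ ESCs held 1, 1 and 0 counts, which placed the triple mutant 16.6-fold above them (4.28 to 142). Counts in set A exceeded those of Hp1α/βΔ/Δ ESCs in all libraries, with a ratio of 0.109 for the double mutant (0.0123 to 0.457). The fold of the triple mutant thus depended on the control, and without the filter Pax3 was called against Hp1α/βΔ/Δ ESCs and not against set A.

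Nes, the filament gene of neural progenitors, had the most precise values of the rising genes. The triple mutant held 139, 134 and 135 CPM and set A held 51.9, 50.5 and 46.1, so that the groups were far apart. The increase was 2.82-fold (log2 1.49 ± 0.05, adjusted p = 2.83e-16). Hp1α/βΔ/Δ ESCs, with 72.6, 75.3 and 71.6 CPM, lay between them, and the triple mutant exceeded them by 0.92 ± 0.04 (adjusted p = 7.19e-12), just short of the threshold.
The level of Nes differed among the mutants with little spread within a group. From high to low, the means were 136 CPM in the triple mutant, 107 in Hp1β/γΔ/Δ, 86.0 in Hp1αΔ/Δ, 73.2 in Hp1α/βΔ/Δ, 65.3 in Hp1γΔ/Δ and 63.0 in Hp1βΔ/Δ ESCs, then 50.6 and 49.5 in wild-type sets B and A, 34.1 in Setdb1Δ/Δ cells, 30.8 in Hp1α/γΔ/Δ and 9.95 in Setdb1F/F ESCs. Of the neighbours in this order by CPM, only Hp1γΔ/Δ with Hp1βΔ/Δ and set B with set A had overlapping libraries. By the deposited TPM, Setdb1Δ/Δ cells at 10.24 to 10.66 lay within set A at 10.07 to 11.19. Set B, at 12.28 to 12.52 TPM, did not overlap set A. Part of this order therefore depended on the scaling. Hp1β/γΔ/Δ ESCs were the only single or double mutant with a call, at 111, 111 and 99.2 CPM against 50.2 to 51.2 in set B (log2 1.08 ± 0.05, adjusted p = 2.35e-10). Hp1α/γΔ/Δ ESCs were on the other side of the wild type with 29.7 to 32.0 CPM (−0.76 ± 0.10, adjusted p = 0.000796).

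Neurog2, the proneural factor of cortical and spinal progenitors, was hardly detected. It had 15, 7 and 14 counts in the triple mutant and 0, 3 and 0 in set A, a ratio of 10.9 with a 95% counting interval of 3.45 to 55.4. Hp1α/βΔ/Δ ESCs held 1 count in all, and the ratio to them was 33.2 (5.59 to 1350). Hp1β/γΔ/Δ ESCs held 6, 9 and 6 counts against 2, 2 and 3 in set B (ratio 2.7, interval 1.11 to 7.53). Hp1α/γΔ/Δ ESCs held none. With a floor of 3 counts over the group in place of 0, their level was 2.17-fold lower than in set B, a value that leaves out counting error. Every library of the triple mutant had more counts than every library of set A and of Hp1α/βΔ/Δ ESCs, but the gene was under the filter and was not tested. With no filter on low counts, edgeR called Neurog2 as higher in the triple mutant against both controls, and DESeq2 did so too.

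Neurod1, which acts after the neurogenins and maintains the differentiation programme, took the opposite course. It was highest in the wild type, with 20.2, 22.8 and 22.9 CPM in set A and 17.7, 19.5 and 20.8 in set B, and the sets overlapped. The triple mutant had 6.61, 7.79 and 6.69 CPM, a 3.05-fold decrease (log2 −1.61 ± 0.10, adjusted p = 2.48e-11).
Double mutants had less Neurod1 than the triple mutant. The means were 4.76 CPM ± 0.71 in Hp1α/βΔ/Δ, 2.95 ± 0.02 in Hp1β/γΔ/Δ and 1.25 ± 0.42 in Hp1α/γΔ/Δ ESCs, and all 3 were called as lower than their wild-type set. Their log2 fold changes were −2.20 ± 0.12 (adjusted p = 6.19e-11), −2.71 ± 0.11 (adjusted p = 2.14e-11) and −3.97 ± 0.25 (adjusted p = 7.63e-05). The triple mutant was above Hp1α/βΔ/Δ ESCs by 0.58 ± 0.16 (adjusted p = 0.00281), which is under the fold threshold. Among single mutants Hp1γΔ/Δ was called at 8.62 to 10.5 CPM (−1.18 ± 0.10, adjusted p = 1.01e-08), and with set B as control it stood at −0.98. Hp1αΔ/Δ and Hp1βΔ/Δ ESCs were not called, with −0.54 (adjusted p = 6.89e-05) and −0.39 (adjusted p = 0.00247). Of the exon bases of Neurod1, 201 (7.4%) are shared with Cerkl on the same strand and 154 (5.6%) with the lincRNA Gm26755 on the opposite strand, and reads there cannot be told apart by position.

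Tubb3, the neuron-enriched β-tubulin, fell when all HP1 paralogs were lost. The triple mutant held 29.8, 30.8 and 28.2 CPM, set A 130, 129 and 122, and Hp1α/βΔ/Δ ESCs 113, 128 and 123. The decrease was 4.2-fold against set A (log2 −2.07 ± 0.05, adjusted p = 5.53e-18) and 4.06-fold against Hp1α/βΔ/Δ ESCs (−2.02 ± 0.06, adjusted p = 1.63e-14). Like Sox1 it lies on chromosome 8, where the median log2 fold change was shifted upward in both comparisons, by 0.515 and 0.481, so that Tubb3 moved against its chromosome.
No single or double mutant was called for Tubb3. Hp1αΔ/Δ and Hp1α/βΔ/Δ ESCs overlapped set A, at 129 and 122 CPM on average. Hp1βΔ/Δ ESCs lay above it, with 182 to 199 CPM (0.56 ± 0.05, adjusted p = 3.11e-06), and Hp1γΔ/Δ ESCs with 145 to 157 CPM (0.24 ± 0.04, adjusted p = 4.95e-05). Hp1β/γΔ/Δ ESCs lay below set B, with 88.6 to 98.8 CPM against 116 to 135 (−0.41 ± 0.06, adjusted p = 5.77e-05). Hp1α/γΔ/Δ ESCs held 139, 190 and 144 CPM, above every library of set B, but the spread was wide (0.27 ± 0.13, adjusted p = 0.137). By the deposited TPM they held 99.0, 89.8 and 101, which overlapped the 95.1, 113 and 107 of set B with a lower mean. The direction therefore depended on the scaling.

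Map2, which binds microtubules in dendrites, was by CPM highest in the wild type and lower in every mutant. By the deposited TPM, set A also led at 11.8, but Hp1βΔ/Δ at 7.33 and Hp1αΔ/Δ ESCs at 7.07 stood near set B at 7.09. The lowest mean TPM was 2.36 in Hp1α/γΔ/Δ ESCs, with the triple mutant at 2.67. Set A held 31.5, 31.9 and 33 CPM and set B 26.8, 24.5 and 24.8, a gap of −0.33 ± 0.06 (adjusted p = 0.00128) between controls without overlap. The triple mutant held 4.38, 5.47 and 5.57 CPM, a 6.09-fold decrease against set A (log2 −2.61 ± 0.10, adjusted p = 4.71e-15). Hp1α/βΔ/Δ ESCs, with 14.6, 10.6 and 13.4 CPM, again lay between, and the triple mutant was lower than them (log2 −1.3 ± 0.15, adjusted p = 5.08e-07).
The 6 single and double mutants held 6.32 to 20.4 CPM, all below the lowest wild-type library of 24.5. Of these, Hp1γΔ/Δ (−1.11 ± 0.07, adjusted p = 4.85e-10), Hp1α/βΔ/Δ (−1.32 ± 0.09, adjusted p = 3.4e-09) and Hp1α/γΔ/Δ ESCs (−1.36 ± 0.25, adjusted p = 0.00432) were called. Hp1αΔ/Δ (−0.99), Hp1βΔ/Δ (−0.76) and Hp1β/γΔ/Δ ESCs (−0.95) were not, although all had adjusted p values of 1.87e-05 or less. The threshold on the fold, rather than the spread of the libraries, separated these groups. Against set B, Hp1γΔ/Δ stood at −0.76 and Hp1α/βΔ/Δ at −0.99, and both calls were lost.

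**Figure D2:**
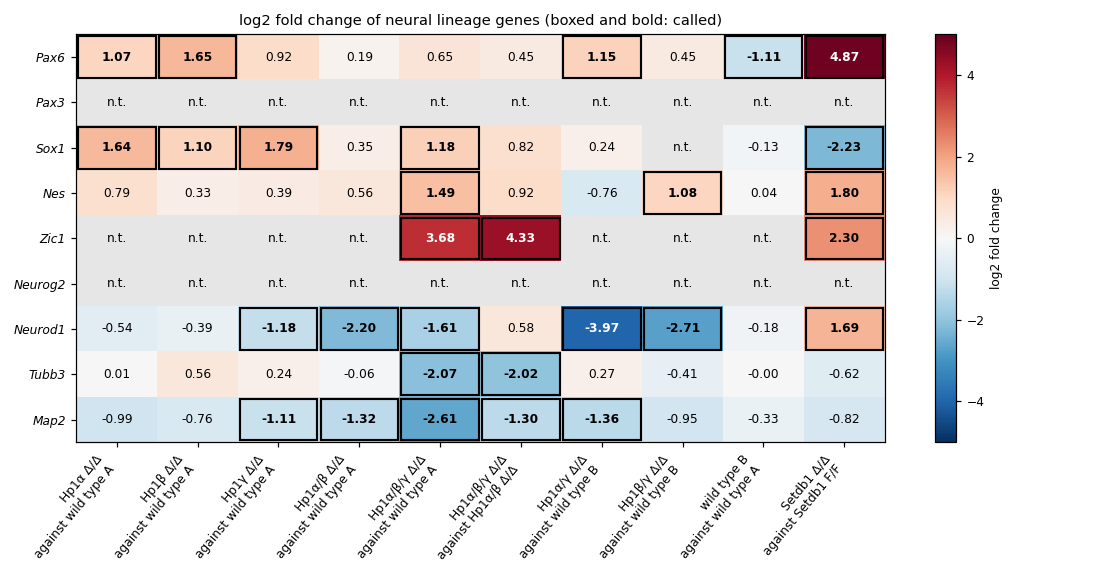
log2 fold change (colour and number) of each gene in 10 comparisons, where a bold number in a box marks a call (adjusted p below 0.05 and absolute log2 fold change over 1) and n.t. marks a gene below the filter. Map2 was negative in all 10 comparisons, Zic1 was tested and called in 3, and Neurod1 was called as lower in 5 and as higher in Setdb1Δ/Δ cells. In those 3, Zic1 passed the filter only through the group where it was higher.

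Taken by genotype, the counts of calls were 2 of 6 tested members in Hp1αΔ/Δ (both higher; 4.87% of all genes were called, 1.56% as higher and 3.31% as lower), 2 of 6 in Hp1βΔ/Δ (both higher; 9.1%, with 2.75% higher and 6.36% lower), 3 of 6 in Hp1γΔ/Δ (1 higher, 2 lower; 5.59%, with 2.04% higher and 3.55% lower) and 2 of 6 in Hp1α/βΔ/Δ ESCs (both lower; 8.16%, with 2.96% higher and 5.19% lower). They were 3 of 6 in Hp1α/γΔ/Δ (1 higher, 2 lower; 23.1%, with 6.75% higher and 16.3% lower) and 2 of 5 in Hp1β/γΔ/Δ ESCs (1 higher, 1 lower; 11.9%, with 7.32% higher and 4.54% lower). The triple mutant against Hp1α/βΔ/Δ ESCs had 3 of 7, with Zic1 higher and Tubb3 and Map2 lower. There 41.4% of all genes were called, 25.4% as higher and 16% as lower, and Zic1 passed the filter only through the triple mutant. The comparisons with set A share its 3 libraries, and those with set B share the libraries of set B, so that they do not repeat each other independently. With 3 libraries against 3, an exact permutation test of a single gene cannot give a p below 0.1, and the p values above draw on the spread of all genes.

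The Hp1α/γΔ/Δ results rest on a group in which replicate 2 differed from the others and in which feeder genes were low. In replicate 2, Pax6 had 80 counts against 125 and 123, Neurod1 had 14 against 32 and 30, and Map2 had 115 against 238 and 263. Without that library the calls stood, with log2 fold changes of 1.31 for Pax6, −3.71 for Neurod1 and −1.09 for Map2. The summed level of the 16 fibroblast markers was 26.0 to 28.1 CPM in Hp1α/γΔ/Δ and 95.9 to 111 CPM in set B, all 11 tested markers were lower, and Postn and Twist2 had no counts in the mutant, while Fap had none in either group. The summed pluripotency level was 7724, 10635 and 7941 CPM in the mutant, highest in replicate 2, against 4721 to 4815 in set B, and 9 of the 18 genes were higher and 0 lower. In the triple mutant the fibroblast sum was 34.4 to 40.1 CPM against 78.3 to 86.1 in set A, with 1 marker higher and 6 lower of 11 tested, and Fap at 0 in both. Mmp2 (35.2 CPM) and Thy1 (14.0) made up much of the sum in set A. Col3a1 rose from 0.733 CPM in set A to 4.21 in the triple mutant while the sum fell, so that the sum is not a plain measure of feeder RNA. The part of feeder RNA and of the pluripotency genes in the values of Pax6, Neurod1, Tubb3 and Map2 was not tested.

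The second question was whether loss of Setdb1 moved the same genes. Setdb1Δ/Δ cells had more RNA of Pax6, Nes, Zic1 and Neurod1 than Setdb1F/F ESCs and less of Sox1. Thus 5 of 7 tested members were called (29.9% of all genes, 18.5% as higher and 11.4% as lower). Pax6, Zic1 and Neurod1 passed the filter only through Setdb1Δ/Δ cells, where they were high, which favours calls as higher. With at least 10 counts required in every library they were not tested, and 2 calls were left. Pax6 gained the most: it had 18, 3 and 6 counts in Setdb1F/F ESCs and 290, 334 and 276 in Setdb1Δ/Δ cells (14.6, 15.8 and 13 CPM). The rise was 29.3-fold (log2 4.87 ± 0.24, adjusted p = 2.58e-12) and reached log2 5.77 without replicate 1 of Setdb1F/F.
Nes rose from 8.95, 10.2 and 10.7 CPM to 34.1, 34.8 and 33.5 (log2 1.80 ± 0.07, adjusted p = 1.32e-13). Zic1 rose from 2, 0 and 6 counts to 13, 17 and 16 (2.30 ± 0.58, adjusted p = 0.00168), and by 3.65 without replicate 3 of Setdb1F/F, which held most of the control counts. Neurod1 had 28, 16 and 0 counts in Setdb1F/F ESCs and 56, 36 and 67 in Setdb1Δ/Δ cells (1.69 ± 0.47, adjusted p = 0.00364). The control libraries of Neurod1 were scattered: the value was 2.46 without replicate 1 of Setdb1F/F, and DESeq2 did not call the gene (1.75, adjusted p = 0.242; 7.01e-09 to 0.242 over 10 alternatives).

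Sox1 was the member that fell. Setdb1F/F ESCs held 29.2, 25.9 and 25.0 CPM and Setdb1Δ/Δ cells 5.42, 6.25 and 5.24, a 4.69-fold decrease (log2 −2.23 ± 0.09, adjusted p = 2.98e-13). The level in Setdb1F/F ESCs was far above the 0.444 to 1.28 CPM of the wild-type sets, and even after the decrease Setdb1Δ/Δ cells held more Sox1 than any Hp1 mutant. Conversely, Neurod1 (0 to 1.4 CPM), Nes, Pax6, Tubb3 and Map2 were lower in Setdb1F/F ESCs than in either wild-type set. Tubb3 averaged 34.2 CPM in Setdb1F/F ESCs against 127 in set A and 126 in set B. Map2 averaged 12.4 CPM against 32.1 and 25.4. The sources used here do not say whether the Setdb1F/F ESCs and the wild-type sets have the same parental line, and an effect of line, culture or genotype cannot be told apart in such a comparison of levels.
Tubb3 and Map2 were lower in Setdb1Δ/Δ cells, but not called. Tubb3 had 32.4, 34.0 and 36.1 CPM in Setdb1F/F and 21.8, 20.8 and 23.1 in Setdb1Δ/Δ (−0.62 ± 0.06, adjusted p = 4.98e-08). Map2 had 12.9, 11.7 and 12.5 CPM and then 7.28, 6.92 and 6.60 (−0.82 ± 0.10, adjusted p = 5.87e-07). By CPM, the libraries of each pair did not overlap. By the deposited TPM, Tubb3 ran from 25.5 to 28.2 in Setdb1F/F ESCs and from 23.1 to 25.9 in Setdb1Δ/Δ cells, which overlap. Pax3 had 1, 0 and 0 counts before and 2, 6 and 1 after deletion (ratio 7.9, interval 1.1 to 346). Neurog2 had none before and 5, 2 and 4 after. With a floor of 3 counts over the group in place of 0, its level was 3.22-fold higher, a value that leaves out counting error.

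The difference between the effects of the triple Hp1 deletion and of the Setdb1 deletion was tested in 1 fit over 12 libraries. It was significant for 6 of 7 tested members, where 64.9% of 18569 genes passed (adjusted p below 0.05). Pax6 (difference −4.25 ± 0.36, adjusted p = 3.93e-10) and Nes (−0.33 ± 0.08, adjusted p = 0.00158) had the larger increase in Setdb1Δ/Δ cells, though for Nes the effects of 1.49 and 1.80 were close. Sox1 (3.37 ± 0.28, adjusted p = 2.18e-10) and Neurod1 (−3.32 ± 0.43, adjusted p = 4.12e-07) had effects of opposite sign. For Neurod1 the sign depended on the control: against Hp1α/βΔ/Δ ESCs the triple mutant stood at 0.58, on the same side as Setdb1Δ/Δ cells, and the difference was −1.13 and no longer significant (adjusted p = 0.0634; 5.93e-32 to 0.0634 over 17 alternatives). Tubb3 (−1.47 ± 0.08, adjusted p = 6.96e-14) and Map2 (−1.81 ± 0.14, adjusted p = 5.6e-11) had the larger decrease in the triple mutant, and for Map2 the difference was −0.50 with Hp1α/βΔ/Δ ESCs as control. Both genes started from lower levels in Setdb1F/F ESCs than in set A. The mean levels after deletion were 29.6 CPM in the triple mutant and 21.9 in Setdb1Δ/Δ cells for Tubb3, and 5.14 and 6.93 for Map2. The difference of Zic1, 1.35 ± 0.99 (adjusted p = 0.242), did not pass, which does not show that the effects were equal.

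**Figure D3:**
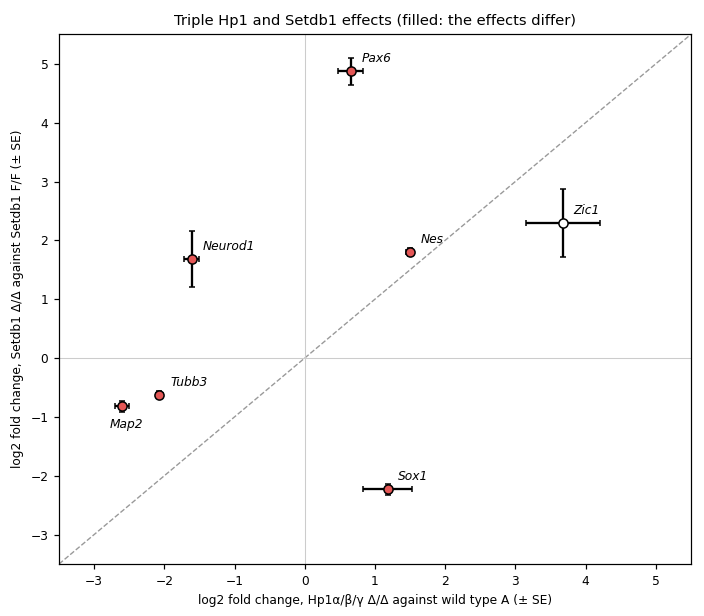
log2 fold change of 7 members in the triple Hp1 mutant against set A (horizontal axis) and in Setdb1Δ/Δ against Setdb1F/F (vertical axis), with bars of 1 standard error and a dashed line where both effects are equal. Nes lay near the line (1.49 and 1.80), Sox1 (1.18 and −2.23) and Neurod1 (−1.61 and 1.69) lay in the quadrants of opposite sign, and the open point, Zic1, is the member whose effects did not differ significantly.

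The wider neural gene lists, which do not hold the 9 members, were described by counts and medians over their tested genes. In the triple mutant, 12 of 29 tested progenitor and patterning genes rose and 9 fell (median log2 fold change 0.74, against 0.04 over all genes). The largest rises at 1 CPM or more were Meis2, a homeobox factor (4.13, adjusted p = 2.32e-09), and Pou3f2, a POU factor of neural progenitors (3.37, adjusted p = 1.04e-05), and the largest falls were Gbx2 (−2.80) and the RNA-binding protein gene Msi1 (−2.31). Of 26 proneural bHLH and Notch genes, 7 rose and 11 fell (median −0.59), led by Atoh1 (3.28) and Ebf3 (2.24) upward and by the Notch ligand gene Dll3 (−2.49) and Id1 (−1.76) downward.
Of 36 neuronal cytoskeleton and synapse genes 6 rose and 19 fell (median −1.10). The growth cone gene Gap43 (−3.25) and Crmp1 (−2.84) fell along with Tubb3 and Map2, but the neurofilament gene Nefm rose from 2.21 to 29.3 CPM (3.76 ± 0.12, adjusted p = 3.32e-16) and Stmn4 from 1.36 to 14.4 (3.44). A fall of neuronal genes was therefore common in this list but not general. Of 9 glial genes 1 rose (Cspg4, 1.41) and 4 fell, among them the oligodendrocyte factors Olig1 (−3.76) and Olig2 (−3.47), and of 15 neural crest genes 7 rose and 3 fell (median 0.76), with Msx2 (2.56) and Snai2 (1.93) upward and Foxd3 (−2.16) and Ngfr (−1.80) downward. Genes of the REST corepressor, which silences neuronal genes outside the nervous system, gave 1 rise (Ctdspl, 1.62) and 5 falls among 15 (median −0.65), with Sin3a (−1.87) and Hmg20b (−1.52) falling the most. For the pluripotency list the counts were 1 and 11 of 18 (median −1.26), with Tbx3 (1.06) upward and Fgf4 (−2.94) and Tdgf1 (−2.63) downward. In the feeder list Col3a1 rose (2.55) and Thy1 (−3.42) and Mmp2 (−2.65) fell the most.

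In Setdb1Δ/Δ cells the same lists gave 9 rises and 6 falls among 21 progenitor and patterning genes (median −0.21, against 0.02 over all genes), with Lmx1a (3.15) and Meis1 (2.42) upward and Pou3f1 (−2.68) and Zfp521 (−2.55) downward. Proneural and Notch genes gave 7 and 3 of 22 (median 0.44), where the Notch ligand gene Dll1 rose from 1.60 to 13.4 CPM (3.09 ± 0.15, adjusted p = 2.27e-12) and Neurog3 rose by 2.61, while Id4 (−2.49) and Hes1 (−1.92) fell. Neuronal genes gave 4 rises and 17 falls of 34 (median −0.97), with Stmn2 (1.86) and Elavl4 (1.73) upward and Grin1 (−4.93) and Gap43 (−3.39) downward.
Glial genes gave 0 and 4 of 9 (Aldh1l1, −2.31, and Slc1a3, −1.89), crest genes 6 and 3 of 11 (Sox8, 3.01, and Snai2, 2.89, against Ngfr, −2.91, and Foxd3, −2.45), and REST corepressor genes 0 and 2 of 15 (Ctdspl, −1.21, and Hmg20b, −1.11). The pluripotency list gave 0 and 5 of 18, led by Klf5 (−2.23) and Nr0b1 (−1.98), and the feeder list 1 and 3 of 8, with Col6a1 (3.23) against Thy1 (−2.73) and Mmp2 (−2.14). The feeder sum was 33.7 to 37.8 CPM in Setdb1F/F ESCs and 26.6 to 28.8 in Setdb1Δ/Δ cells.

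**Figure D4:**
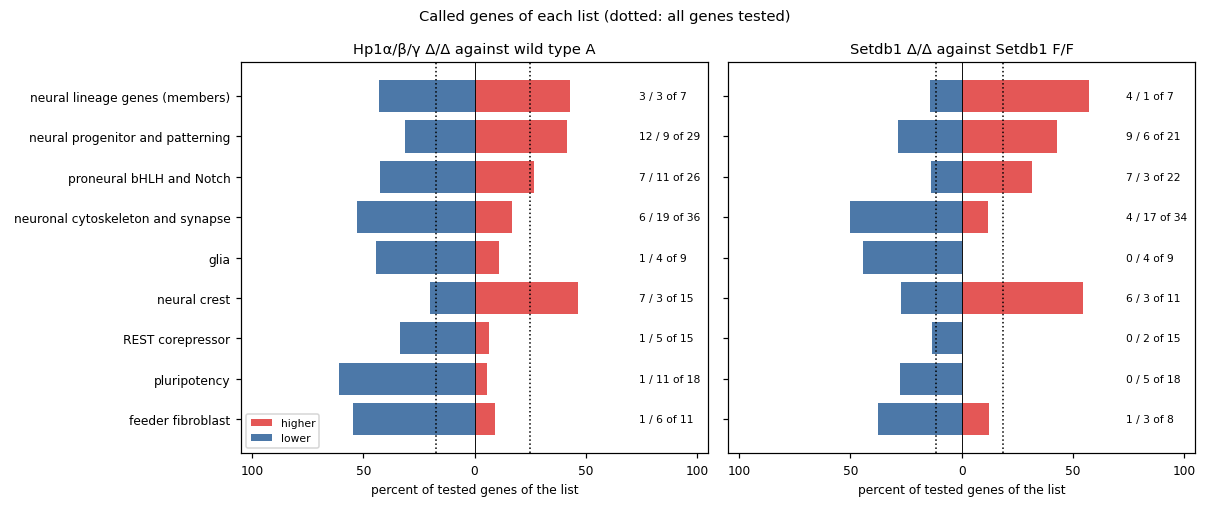
Percent of the tested genes of each list that were called as higher (right of 0, red) or lower (left of 0, blue) in the triple mutant against set A and in Setdb1Δ/Δ against Setdb1F/F; numbers give higher / lower of tested, and dotted lines the shares over all genes (25.1% and 17.1%, and 18.5% and 11.4%). The neuronal list stood mostly to the left in both panels, with 19 of 36 and 17 of 34 genes lower.

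Genes with the pattern most like a member over the 11 group means of log2 CPM, among 14640 genes, were named by Pearson's r, as a description of 11 groups that are not independent, since mutants share wild-type sets and gene deletions. For Neurod1 they were Insm1 (r = 0.955), a zinc finger gene of neuroendocrine and neuronal precursors, and Ccdc116 (0.955). For Map2 they were Fstl1 (0.966) and the synapsin gene Syn1 (0.957), for Tubb3 Thop1 (0.99) and Neurl4 (0.986), and for Nes Sema6a (0.972) and Ppp1r16b (0.951). Pax6 was nearest to Ajuba (0.936) and Tent5c (0.928), Sox1 to Prpf4b (0.947) and Creb1 (0.936), and Zic1 to Tppp (0.991) and Olfr1420 (0.99). Zic1 reached a mean of 10 counts only in the triple mutant and in Setdb1Δ/Δ cells, so its r rests on these groups.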

How the data were processed

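RNA was extracted with TRIzol and sequenced as paired-end TruSeq libraries. The study's methods name a stranded total RNA kit, and the labels a TruSeq RNA kit with no word on strand. Per the labels' processing notes, the authors used TopHat2 2.1.1, RSEM and edgeR with GRCm38.p5, with no roles given, whereas the methods of the study name DESeq2 for differential expression. The deposited tables hold estimated counts and TPM per gene, both made by the authors, for each mutant with its control. Columns of the authors' own comparisons (log2 fold changes, p values) were not used. Control columns repeated between tables were identical in 30 of 30 cases and were counted once. Estimated counts were rounded, since 12.9% of values were not whole. The strand setting of the counting is not given in the sources used here.

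Each comparison was fitted on its 6 libraries in edgeR 4.0.16 (R 4.3.3) with filterByExpr (minimum count 10), TMM normalisation and the quasi-likelihood test (prior count 0.125), and p values were adjusted over all tested genes (Benjamini-Hochberg). The call rule (adjusted p below 0.05, log2 fold change beyond 1 in size) follows the study's methods. Genes below the filter are given as ratios of normalised group totals with exact 95% binomial intervals, which cover counting error only. The fits were tested on simulated data. Positions are those of GENCODE M21 (GRCm38). The study's methods call the replicates biological and the labels do not say how they were separated, so p values measure the spread between these libraries. Alternatives were DESeq2 1.42.0, RLE, other filters, a replicate block, other controls and leaving out each library. Named were the 9 members, the targeted genes, up to 2 called genes a direction and list at 1 CPM or more, and the 2 nearest patterns of each member. Members and lists were chosen with earlier results of these data known.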

Additional observations from a re-analysis of the deposited data

Results flagged for a closer look

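For 6 members the effect of the triple Hp1 deletion (against wild-type set A) differed from that of the Setdb1 deletion (against Setdb1F/F ESCs) in the direct test over 12 libraries, and 64.9% of all tested genes did so as well. The difference, triple minus Setdb1 on the log2 scale, was −4.25 for Pax6, which gained 0.65 in the triple mutant (not called) and 4.87 in Setdb1Δ/Δ cells. It was 3.37 for Sox1 and −3.32 for Neurod1, whose effects had opposite signs. Against Hp1α/βΔ/Δ ESCs, however, Neurod1 stood at 0.58 in the triple mutant, the same sign as its 1.69 in Setdb1Δ/Δ cells, and the difference was −1.13 (adjusted p = 0.0634 in edgeR). It was −0.33 for Nes, which rose in both mutants. It was −1.47 for Tubb3 and −1.81 for Map2, both called as lower in the triple mutant and lower without a call in Setdb1Δ/Δ cells. Each effect has its own control group, and whether set A and Setdb1F/F ESCs come from the same parental line is not stated in the sources used here.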

How the results depend on the processing

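Of the counts of called members, 128 stayed within 1.5 times their value under an alternative and 14 did not. This compares how many members were called, not which ones or in which direction. Among the 128, with set B as control, Hp1γΔ/Δ went from Sox1 higher with Neurod1 and Map2 lower to Pax6 and Sox1 higher. Likewise, Hp1α/βΔ/Δ went from Neurod1 and Map2 lower to Pax6 higher and Neurod1 lower. With set A as its control, Hp1β/γΔ/Δ had 4 calls in place of 2, and Pax6 turned from 0.45 to −0.663 (adjusted p = 0.00987, not called). With at least 10 counts required in every library, the Setdb1 comparison had 2 calls in place of 5, since Pax6, Zic1 and Neurod1 were not tested. The triple mutant against Hp1α/βΔ/Δ had 5 calls in place of 3 with DESeq2 and 5 without a filter, which adds Pax3 and Neurog2.

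Leaving out 1 library at a time gave 1 to 3 calls for Hp1αΔ/Δ, 1 to 2 for Hp1βΔ/Δ, 3 to 5 for the triple mutant against Hp1α/βΔ/Δ and 0 to 1 between the wild-type sets. It also turned the sign of small, uncalled log2 differences: Tubb3 in Hp1αΔ/Δ ran from −0.016 to 0.03, Pax6 in Hp1α/βΔ/Δ from −0.009 to 0.365, and Sox1 in Hp1α/γΔ/Δ from −0.016 to 0.938. Between the wild-type sets, Sox1 ran from −0.825 to 0.14, Nes from −0.011 to 0.071 and Tubb3 from −0.054 to 0.056. The Zic1 difference between the triple and Setdb1 effects ran from −0.041 without replicate 3 of Setdb1F/F to 2.635 without replicate 2 of set A. With set B as control, Pax6 was called in Hp1γΔ/Δ (2.05) and Hp1α/βΔ/Δ (1.31), and its values rose to 2.2 in Hp1αΔ/Δ and 2.77 in Hp1βΔ/Δ.

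The replicate numbers did not pair the libraries (same-number correlations from −0.056 to 0.116), and the fit with the number as a block changed no count of called members, with 6 calls again in the triple mutant against set A. Counts over all genes moved by more than 1.5 times with at least 10 counts in every library (771 to 468 in Hp1αΔ/Δ, 885 to 572 in Hp1γΔ/Δ, 1293 to 845 in Hp1α/βΔ/Δ, 1929 to 1139 in Hp1β/γΔ/Δ, 7402 to 4866 in the triple mutant, 7213 to 4648 against Hp1α/βΔ/Δ, 4918 to 3057 for Setdb1 and 909 to 386 between wild-type sets), a filter that tests fewer genes. With set B as control they were 1438, 2428 and 1692 in Hp1αΔ/Δ, Hp1βΔ/Δ and Hp1γΔ/Δ, against 771, 1442 and 885. Depth limits Pax3, Neurog2 and, in most groups, Zic1.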
